A study of Arabidopsis thaliana with 21 samples.

Results

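MicroRNA (miRNA) genes of Arabidopsis thaliana are described here as they stand in the deposited TAIR10 gene annotation. A locus was taken as a miRNA gene when the annotation holds it as a gene with the note miRNA, which gave 177 of 33602 loci. All 177 lie on the 5 nuclear chromosomes. The annotation accompanies an RNA sequencing study of 21 libraries, 12 from soc1-ful plants and 9 from wild-type Col-0 plants (WT). SOC1 and FUL are MADS-box transcription factor genes that promote flowering and restrain secondary growth of the stem, and the labels name no allele of either. The 7 groups, of 3 libraries each, were soc1-ful herbaceous stem, soc1-ful cambium stem, soc1-ful wood stem, soc1-ful leaf, WT herbaceous stem, WT cambium stem and WT leaf, all in the col-0 ecotype and grown at 20 °C under 16 h of light. The libraries were strand-specific and made from poly(A) RNA, and their expression values are not analysed here. The annotation holds 590264 lines, of which 0 carry a score, so the values below are positions, lengths and sequences, without replicates, and no test was made.

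A plant miRNA gene is transcribed by RNA polymerase II into a capped and polyadenylated primary transcript that folds back on itself into a hairpin. DICER-LIKE1 (DCL1) cuts a short duplex out of the hairpin stem, and the mature strand of the duplex is loaded into ARGONAUTE1 (AGO1). There it pairs with messenger RNAs along nearly its whole length, and these are cut or kept from translation. In stems, miRNAs are known for setting the juvenile to adult change (miR156), floral timing (miR172), the identity of xylem cells (miR165 and miR166) and the laccases of lignin formation (miR397, miR408 and miR857).

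The sequences on which the family results turn are shown first. They were read from the RefSeq annotation of TAIR10.1, which holds all 177 genes and annotates 258 mature miRNAs in them. Each is written 5′ to 3′, and the capitals mark the seed, bases 2 to 8. The miR156 and miR157 products come from 12 genes.
miR156a-5p: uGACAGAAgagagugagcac
miR156g: cGACAGAAgagagugagcac
miR156h: uGACAGAAgaaagagagcac
miR157a-5p: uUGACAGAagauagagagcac
miR157d: uGACAGAAgauagagagcac

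Of the 12 genes, 6 (MIR156a to MIR156f) encode the same mature miRNA. Positions are counted from 1 at the 5′ end, with the base of the first-named miRNA first. Against miR156a-5p, miR156g carried U1C, miR156h carried G11A and U14A, and miR157d carried G11U and U14A. miR157d is miR157a-5p without its first base, which moves its seed into the miR156 group although its name puts it with miR157.

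The miR172 and miR164 products, of 5 and 3 genes, are shown because their families differ at an end base alone.
miR172a: aGAAUCUUgaugaugcugcau
miR172c: aGAAUCUUgaugaugcugcag
miR172e-3p: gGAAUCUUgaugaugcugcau
miR164a: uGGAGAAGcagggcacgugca
miR164c-5p: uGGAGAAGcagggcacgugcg

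Against miR172a, miR172c carried U21G and miR172e-3p carried A1G. miR164c-5p carried A21G against miR164a. The end base is the last 1 in miR172c and miR164c-5p and the first 1 in miR172e-3p, so the seed is shared within both families.

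The miR165 and miR166 products are known to act on HD-ZIP III genes of vascular and leaf polarity, and the miR397, miR408 and miR857 products on copper proteins such as laccases.
miR165a-3p: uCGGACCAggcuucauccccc
miR166a-3p: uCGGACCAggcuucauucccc
miR397a: uCAUUGAGugcagcguugaug
miR397b: uCAUUGAGugcaucguugaug
miR408-3p: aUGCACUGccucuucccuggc
miR857: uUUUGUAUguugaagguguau

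miR166a-3p carried C17U against miR165a-3p, and miR397b carried G13U against miR397a. The 7 genes MIR166a to MIR166g encode miR166a-3p and a pair (MIR165a and MIR165b) encode miR165a-3p. The 3 copper-related families share neither a seed nor a mature sequence with each other.

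Whole hairpins from TAIR10.1 show where mature miRNAs sit in the folded precursor, and in them the capitals mark the annotated mature miRNAs. MIR156a (AT2G25095, chr2:10676451-10676573, minus strand) has a mature miRNA on each arm. MIR170 (AT5G66045, chr5:26411580-26411672, minus strand) is the shortest miRNA gene of TAIR10. MIR838 (AT1G01046, chr1:28500-28706, plus strand) lies in an intron of DCL1. MIR397b (AT4G13555, chr4:7878652-7878760, minus strand) is the neighbour of MIR857.
MIR156a: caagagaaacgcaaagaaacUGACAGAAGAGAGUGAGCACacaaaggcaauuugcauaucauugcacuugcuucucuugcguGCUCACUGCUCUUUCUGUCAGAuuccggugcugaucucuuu
MIR170: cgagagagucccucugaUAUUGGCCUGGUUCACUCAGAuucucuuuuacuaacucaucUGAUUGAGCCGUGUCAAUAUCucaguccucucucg
MIR838: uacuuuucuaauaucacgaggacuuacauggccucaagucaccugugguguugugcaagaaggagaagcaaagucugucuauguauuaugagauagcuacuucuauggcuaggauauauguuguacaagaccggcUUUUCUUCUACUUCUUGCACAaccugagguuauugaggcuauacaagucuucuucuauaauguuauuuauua
MIR397b: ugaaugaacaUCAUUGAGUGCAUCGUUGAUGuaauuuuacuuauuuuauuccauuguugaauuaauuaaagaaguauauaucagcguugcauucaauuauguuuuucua

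Most miRNA genes were annotated as little more than the hairpin. The median gene feature was 126 bp long, with an order-statistic 95% interval of 118 to 146 bp, and the quartiles were 101 and 198 bp. Order-statistic intervals treat genes as independent draws, although the 177 genes are the full annotated set and include copies within families. Of the 177 genes, 36 were under 100 bp, 166 were under 400 bp and 6 exceeded 1000 bp. For the other small RNA classes the medians were 72 bp for 631 nuclear tRNA genes and 84 bp for 71 snoRNA genes. The 394 genes noted as other RNA had a median of 1228.5 bp and 27206 nuclear protein-coding genes a median of 1918 bp. In length the miRNA genes overlapped with the snoRNA genes (72 to 702 bp), while none of the tRNA genes (36 to 87 bp) reached the miRNA median.

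**Figure D1:**
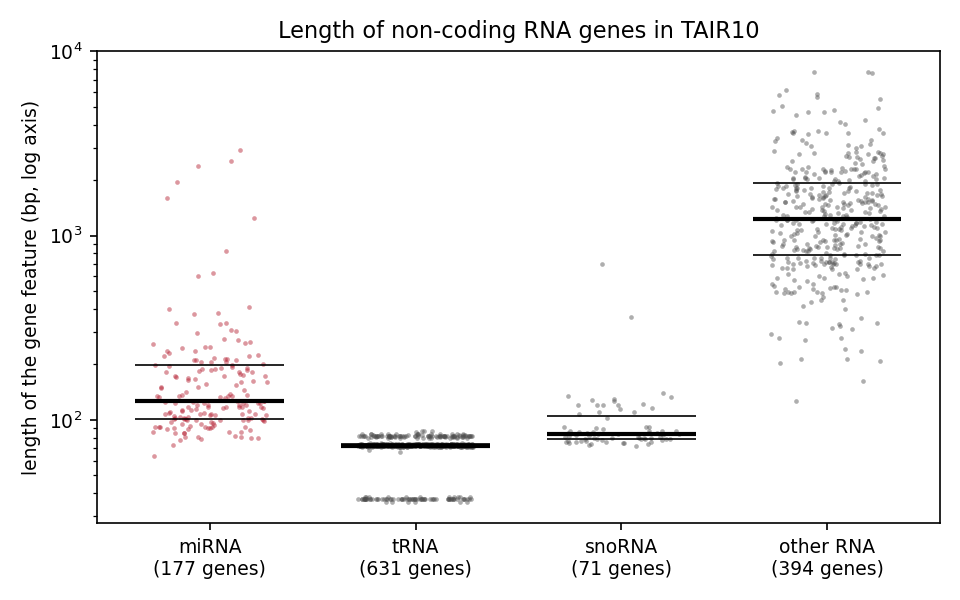
Length of each gene feature in bp (log axis) for miRNA, nuclear tRNA, snoRNA and other RNA genes; a point is a gene, the thick line the median and the thin lines the quartiles. The miRNA genes centre on 126 bp, with 6 genes above 1000 bp.

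The long miRNA genes were those annotated as primary transcripts. MIR824, whose product acts on the MADS-box gene AGL16, was the longest at 2897 bp, with 4 exons, 3 transcripts and 1485 bp in spliced form. MIR156c followed at 2555 bp, with 3 exons and 857 bp spliced, and MIR398c at 2388 bp, with 2 exons and 1941 bp spliced. MIR172a, a regulator of AP2-type flowering repressors, measured 1944 bp with 3 exons and 1102 bp spliced. MIR408 measured 1247 bp in 1 exon. Members of 1 family could thus differ widely: MIR156b was 80 bp and MIR172b was 89 bp. Only 5 of the 177 genes had more than 1 exon, namely MIR824, MIR156c, MIR398c, MIR172a and MIR414. The last was named after its values were seen.

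The shortest genes were MIR170 with 64 bp, MIR418 with 73 bp and MIR164a with 78 bp. The hairpin of MIR170 in TAIR10.1, printed above, was 93 bases long. Of the 177 genes, 115 had the same span in both annotations, 51 were longer in TAIR10.1 and 11 were shorter there, and the median in TAIR10.1 was 139 bp. In 26 of the 80 genes with at least 2 mature miRNAs, both ends of the TAIR10 gene lay within 5 bases of the outer ends of the mature miRNAs. In 15 genes a mature miRNA even reached past the end of the TAIR10 gene, by 1 to 8 bases, and 14 of these 15 were on the 3p arm. The MIR156a hairpin printed above has 123 bases, of which the TAIR10 gene (chr2:10676472-10676553) covers 82.

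The genes were spread over all 5 chromosomes. Chromosome 1 held 53 miRNA genes (1.74 per Mb), chromosome 2 held 29 (1.47), chromosome 3 held 30 (1.28), chromosome 4 held 28 (1.51) and chromosome 5 held 37 (1.37), against 1.49 per Mb over all 5. Chromosome 1 carried 29.9% of the miRNA genes, set beside 26.0% of the protein-coding genes and 25.5% of the bases. On chromosome 3 the shares were 16.9% of the miRNA genes, 20.0% of the protein-coding genes and 19.7% of the bases. The plus strand carried 96 miRNA genes and the minus strand 81. Of the 26 families with more than 1 gene, 21 had members on more than 1 chromosome. All 6 MIR395 genes, by contrast, were on chromosome 1 and all 3 MIR447 genes on chromosome 4.

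**Figure D2:**
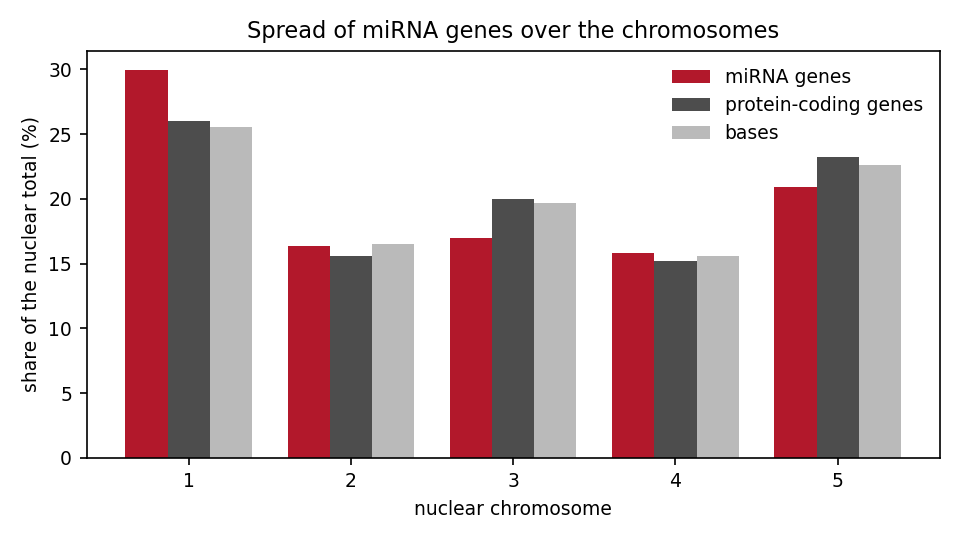
Share (%) of miRNA genes, of protein-coding genes and of bases that each nuclear chromosome holds. The miRNA share exceeds the coding share most on chromosome 1 (29.9% and 26.0%) and falls short of it most on chromosome 3 (16.9% and 20.0%).

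Clusters, runs of miRNA genes with less than 10 kb between neighbours on either strand, numbered 15 and held 39 of the 177 genes. The remaining genes were mostly far apart. Over all 177 genes, clustered ones included, the median gap from a gene to its nearest miRNA gene was 138 kb. No other miRNA gene lay within 100 kb of 111 genes. The widest gap inside a cluster was 7807 bp (MIR157a and MIR157b) and the next gap beyond the limit was 20578 bp, between MIR169c and MIR869, so no pair stood close to 10 kb. Of the 24 neighbouring pairs in clusters, 10 were under 1 kb apart and 19 were on the same strand. Chromosome 1 held 14 of the clustered genes and chromosome 4 held 10.

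In 10 clusters, with 28 genes, all members bore the same family name. The longest run was MIR169i to MIR169n on chromosome 3 (chr3:9871960-9878754), 6 genes on the minus strand. miR169 is known to act on NF-YA transcription factor genes in nutrient and drought responses. The gaps along the run were 167, 2971, 155, 2064 and 160 bp, so close neighbours alternated with wide spaces. Hairpin sequences alternated in the same way: MIR169i, MIR169k and MIR169m were 83.6 to 89.2% identical to each other, and MIR169j, MIR169l and MIR169n were 87.4 to 88.8% identical to each other. Between the 2 sets, adjacent genes included, identity was 57.7 to 61.0% in all 9 pairs. All 6 genes and MIR169h nevertheless encode the same mature miRNA.
miR169h: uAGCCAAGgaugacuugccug
miR169d: uGAGCCAAggaugacuugccg

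MIR169d and MIR169e, 1901 bp apart on chromosome 1 on opposite strands, encode with MIR169f and MIR169g the second product printed above. Its seed, in capitals, is shifted by 1 base relative to that of miR169h. The MIR169 genes thus fell into a seed group of 10 genes and another of 4 genes.

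MIR395 genes, whose products act on ATP sulfurylases and a sulfate transporter in sulfur assimilation, formed 2 clusters of 3 on chromosome 1. MIR395a, MIR395b and MIR395c spanned 3984 bp and MIR395d, MIR395e and MIR395f spanned 3991 bp, each with members on both strands. MIR395b and MIR395c had hairpins 97.0% identical. MIR395a was 63.8% identical to MIR395b and 64.8% to MIR395c. The products of MIR395a and MIR395b differ by A17G.
miR395a: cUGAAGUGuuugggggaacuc
miR395b: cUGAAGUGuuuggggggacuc

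The other clusters with 1 family name differed as much in how alike their genes were. MIR399d, MIR399e and MIR399f on chromosome 2, whose products act on PHO2 in phosphate homeostasis, lay 426 and 1384 bp apart with identities of 62.9 to 67.9%. MIR447c, MIR447a and MIR447b on chromosome 4 covered the longest span, 12356 bp, and MIR447a and MIR447b were 96.2% identical. MIR398b and MIR398c on chromosome 5, whose products act on copper/zinc superoxide dismutases, were 96.6% identical with 3488 bp between them. MIR166c and MIR166d were 1870 bp apart and 69.0% identical, MIR157a and MIR157b 69.7% identical. MIR845b and MIR845a, 3279 bp apart, were the least alike at 49.1%. Over 32 pairs of the same family in the same cluster the median identity was 66.3%, beside 56.4% over 194 pairs of the same family elsewhere. The miR169 family made up 16 of the former pairs and 75 of the latter. Medians were also higher in the cluster within miR169 (16 pairs) and miR399 (3 pairs). In miR157, miR166 and miR398 the cluster held 1 pair each, which lay above the median elsewhere. In miR157 and miR166 the highest pair elsewhere exceeded that single pair, at 71.7% and 75.0%. Within miR395 the order was reversed, 67.3% in the same cluster and 70.4% elsewhere. MIR397a and MIR397b, which share no cluster on chromosome 4, had hairpins 85.5% identical.

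The 5 clusters of mixed family names were all on 1 strand. MIR859 and MIR774a were 92 bp apart, MIR771 and MIR851 157 bp, MIR842 and MIR846 197 bp, and MIR850 and MIR863 669 bp. MIR850 and MIR863 both lay inside AT4G13495, a locus noted as other RNA, on its strand. In the fifth cluster MIR857 (chr4:7878185-7878561) and MIR397b were 90 bp apart on the minus strand of chromosome 4, the closest neighbours of all miRNA genes. Both families are known for laccase targets. MIR841a followed 6490 bp on from MIR397b.

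**Figure D3:**
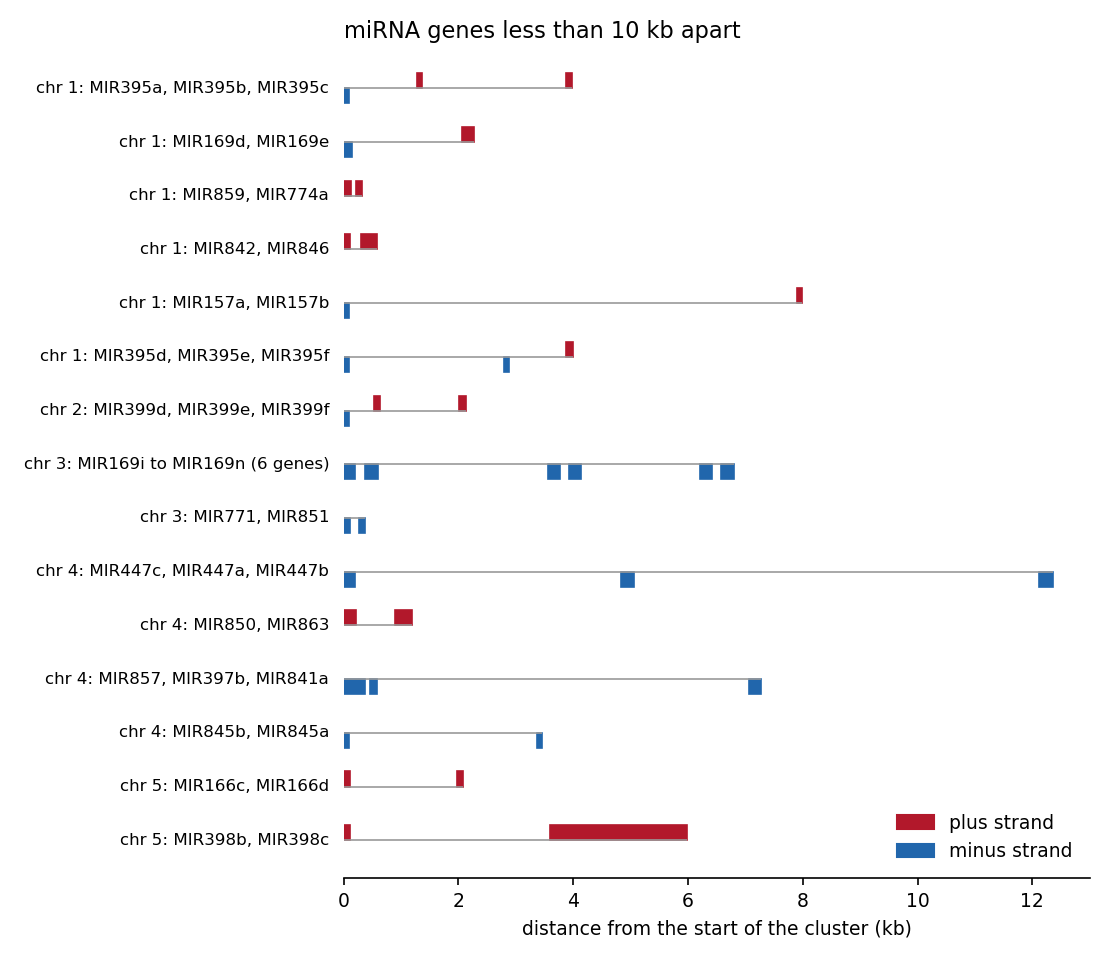
The 15 clusters drawn to scale from the start of each (kb); boxes above the line are genes on the plus strand and boxes below it genes on the minus strand. The MIR169i to MIR169n run shows 3 close pairs, and the MIR857 and MIR397b boxes lie 90 bp apart.

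By position, 150 of the 177 miRNA genes (84.7%) shared no base with a protein-coding gene, while 50.1% of the nuclear bases lay inside coding genes. A further 14 genes lay wholly in an intron and 13 shared at least 1 base with an exon. In the same classification 90.8% of tRNA genes, 83.1% of snoRNA genes and 41.6% of other RNA genes lay outside coding genes. Exon overlap on the opposite strand, the arrangement of a natural antisense transcript, held 3.39% of miRNA genes and 56.1% of other RNA genes. Among intronic genes, 13 miRNA genes were on the host's strand and 1 was on the other. The snoRNA genes had 7 on the host's strand and 0 on the other, and the nuclear tRNA genes had 9 and 22. These shares are descriptions of the annotation and were not tested.

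**Figure D4:**
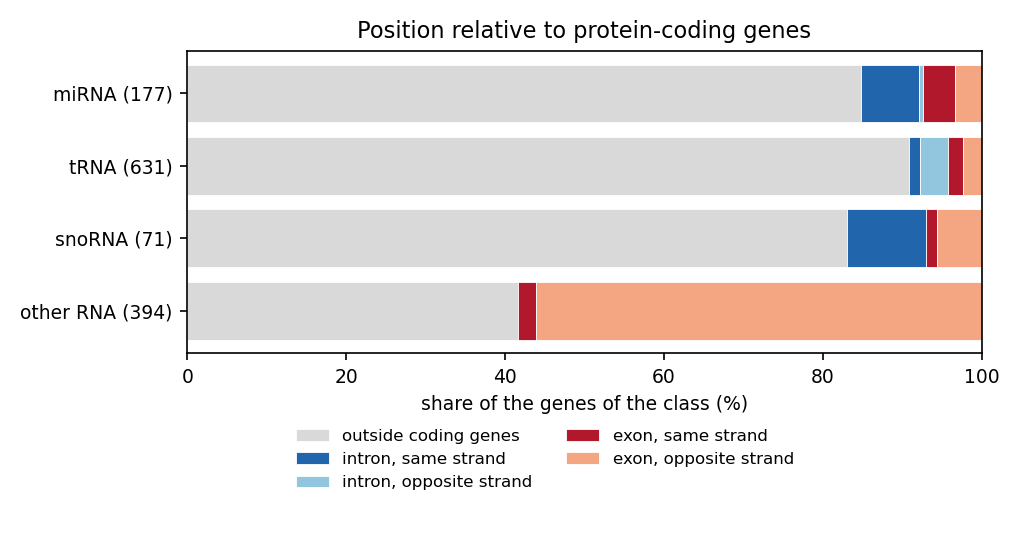
Share (%) of the genes of each RNA class that lie outside coding genes, in an intron or over an exon, by strand, with the number of genes in parentheses. Outside coding genes lie 84.7% of miRNA genes and 41.6% of other RNA genes.

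For the 150 intergenic miRNA genes the distance to coding genes was measured. Other RNA classes were not measured in this way, so the distances cannot be called particular to miRNA genes. Upstream gaps ran from 146 to 115186 bp. The nearest coding gene was at a median of 1107 bp, and for 71 genes it was within 1 kb. The median gap was 2043.5 bp on the upstream side and 1689.5 bp downstream, and in 38 genes the upstream coding gene lay within 1 kb. The upstream neighbour was on the strand of the miRNA gene in 78 of 150 cases and the downstream neighbour in 81. MIR166a had 9176 bp free upstream and MIR164c 8859 bp, whereas MIR156b had 356 bp and MIR166c 559 bp. Of the 33 genes of the miR156, miR157, miR164, miR165, miR166, miR172, miR397, miR408 and miR857 families, 30 were intergenic.

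Introns on the same strand held 13 miRNA genes. MIR838 took up 75.0% of a 276 bp intron of DCL1, the enzyme that processes miRNA precursors, and this intron is number 14 when exons are joined over isoforms. MIR862 lay in intron 15 of PKL, which encodes the chromatin remodelling factor PICKLE. MIR837 lay in intron 1 of NRT1.9, a transporter gene, MIR853 in intron 3 of AT3G23325, which encodes a splicing factor subunit, and MIR778 in intron 15 of AT2G41620, a nucleoporin-related gene. MIR420 filled 76.9% of a 130 bp intron of AtVEX1. MIR156d lay in intron 1 of AT5G10946, a gene of an uncharacterized protein. The remaining 6, MIR400, MIR402, MIR833a, MIR844, MIR848 and MIR852, lay in hosts without a RefSeq symbol.

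MIR156g was the only miRNA gene on the opposite strand of its host intron, in a 1246 bp intron of AT2G19420. Over the 14 intronic genes the intron was 130 to 1929 bp long, with a median of 674.5 bp, and in 6 cases it was the first intron. The median of all 117705 introns of coding genes was 99 bp, and since a host intron must exceed the length of the hairpin, these medians are not comparable as a measure of preference.

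Exons on the same strand overlapped 7 miRNA genes, all of them in untranslated regions. MIR472 lay with all of its 168 bp in the 5′ UTR of AT1G12290, a disease resistance gene of the CC-NBS-LRR class, and miR472 is known to act on messenger RNAs of that class. MIR835 lay with 400 bp in the 3′ UTR of AT1G76065, MIR840 with 146 bp in that of the pentatricopeptide repeat gene AT2G02750, and MIR860 with 126 bp in that of FC1, the ferrochelatase 1 gene of haem synthesis. MIR834 shared 210 bp with the 3′ UTR of AT5G08230, MIR413 26 bp with that of AT1G62350 and MIR777 33 bp with the 5′ UTR of AT1G70650.

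Exons on the opposite strand overlapped 6 miRNA genes, and coding sequence was involved in 5 of these. MIR398c shared 1852 bp with exons of NRT2.7, the nitrate transporter 2.7 gene, of which 1482 bp were coding. MIR408 shared 846 bp with AT2G47020, 536 bp of it coding, and MIR824 shared 504 bp of coding sequence with AT4G24410. MIR780 shared 96 bp of coding sequence with AT4G14810, MIR841a 65 bp with the histone gene HTA4, and MIR398b 116 bp with the 3′ UTR of AT5G14550. In MIR398c and MIR824 no mature miRNA lay in the host's exons. Over the 13 exon-overlapping genes, 10 had a mature miRNA in an exon, and in 2 (MIR780 and MIR841a) it lay in coding sequence.

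By name the 177 genes formed 105 families, of which 79 had 1 gene and 26 had more, with 98 genes in all. The largest were miR169 with 14 genes, miR156 with 8, miR166 with 7, and miR395 and miR399 with 6 each. By seed the 258 mature miRNAs fell into 174 groups, and 38 of these held more than 1 gene. In 21 of the 26 families with more than 1 gene, all genes shared a seed. Besides the miR169 group, the widest seed groups were that of miR165 and miR166 and that of miR156 with miR157d, 9 genes each. A seed was shared across family names in 7 groups. One of them joined the 3 MIR164 genes with miR835-3p, whose gene lies in the 3′ UTR described above.

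Most mature miRNAs had the length that DCL1 is known to produce. Of 258, 200 (77.5%) were 21 nucleotides long, 29 had 22, 19 had 20, 3 had 23 and 7 had 24. In the 20-nucleotide class given in the locus notes, 9 of 13 belonged to miR156 and miR157. Uracil was the first base of 166 (64.3%), which is the base that AGO1 is known to prefer. The locus notes of the RefSeq annotation give a mature sequence for 160 genes, and 148 of these equal an annotated mature miRNA. Of those 148, 123 (83.1%) began with U and 1 (0.676%) with G, and the unmatched notes were left out. Among the 74 other mature miRNAs annotated in the same hairpins, most but not all of which pair with the first, 23 (31.1%) began with U and 21 (28.4%) with G. The strands in the notes came about equally from both arms, 77 from the 5p and 71 from the 3p arm.

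Folded in silico, the hairpins were paired over most of their length. The median minimum free energy of the TAIR10.1 hairpins was -39.9 kcal/mol per 100 nucleotides, with an order-statistic 95% interval of -41.3 to -38.8, and the median share of paired bases was 73.2%. The nuclear tRNA genes had a median of -36.1 and the snoRNA genes of -17.3 kcal/mol per 100 nucleotides. In 176 of 177 hairpins the mature miRNA lay on 1 arm of the stem, the exception being MIR171c. In the 79 hairpins with 2 mature miRNAs a median of 17 bases of the first paired with the second, and in 69 at least 15 did. Energies ran from -69.1 for MIR839 to -10.1 for MIR418, which is also the second shortest gene. MIR420 was next to MIR418 at -10.3. Of the families tied to stem development, MIR156e folded most stably at -57.9, and MIR408 least at -28.8. MIR839, MIR171c and MIR414 were named after their values were seen.

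Targets were then examined with 92 pairs of a family and a target locus, in 27 families, listed from general knowledge of plant miRNAs. Each mature miRNA was slid without gaps along all TAIR10 transcripts, and a site was scored as the sum of mismatches (1 each) and G:U pairs (0.5 each), so that 0 is full complementarity. Of the 92 pairs, 83 scored 4 or less, and the median score was 2 over the 85 pairs that scored 5 or less. By comparison 29.0% of 27206 coding genes (7885) scored 4 or less with at least 1 of the 105 families, so such a score alone does not mark a target. Within the listed families the share was between 0.107% of coding genes for miR162 and 1.77% for miR156 and miR157. Of the 85 listed sites that scored 5 or less, 66 lay in coding sequence, 11 in a 3′ UTR, 3 in a 5′ UTR and 5 in non-coding RNAs, and 8 ran across an exon junction.

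**Figure D5:**
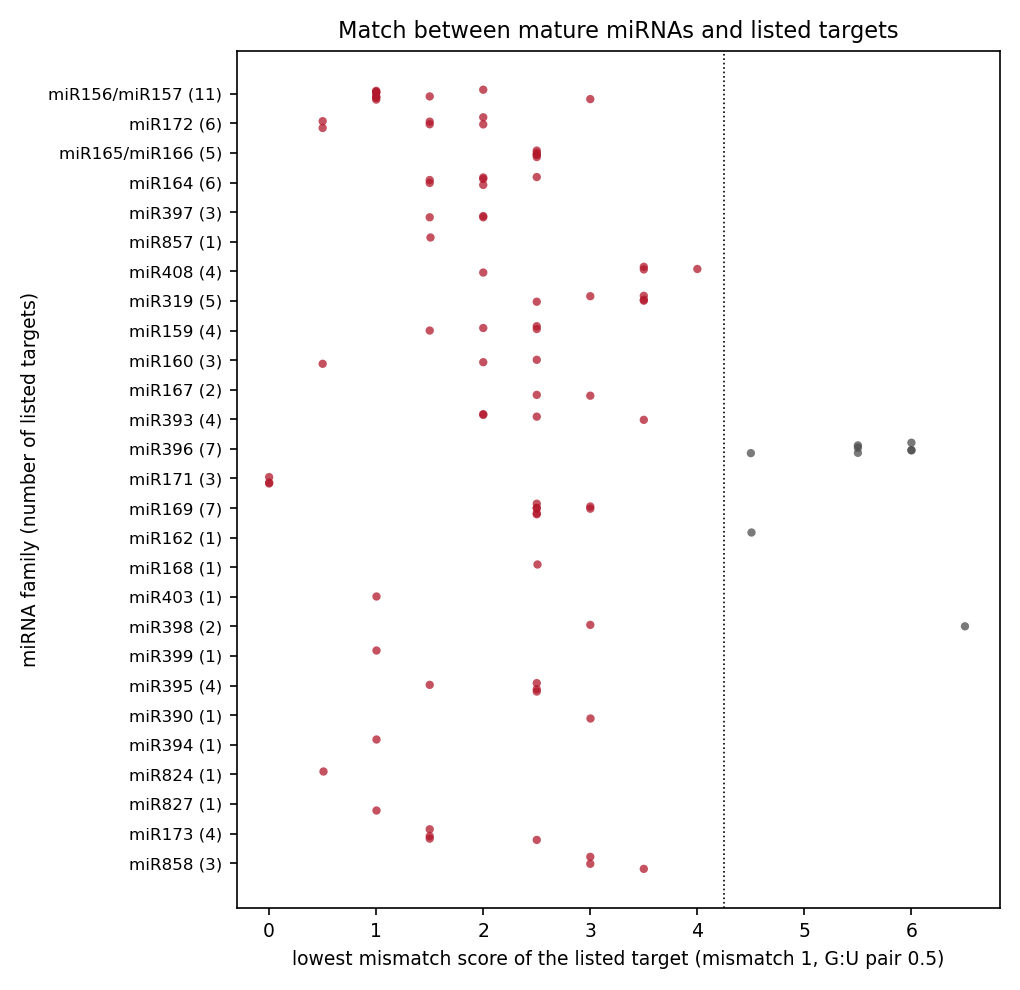
Lowest mismatch score of each listed target against the mature miRNAs of its family; a point is a target, points left of the dotted line score 4 or less. All 3 miR171 targets lie at 0 and all 7 miR396 targets lie above 4.

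The sites of the families of phase change and flowering are printed 5′ to 3′ as messenger RNA, with mismatched and G:U-paired bases in capitals. Coordinates are those of TAIR10. SPL9 (chr2:17589066-17589085, plus strand) and SPL3 (chr2:14305878-14305897, plus strand) are SQUAMOSA PROMOTER BINDING PROTEIN-LIKE genes, activators of the adult phase, and are aligned with miR156a-5p. AP2 (chr4:17403019-17403039, plus strand) and TOE2 (chr5:24210889-24210909, plus strand) are flowering repressors, aligned with miR172c and miR172a.
SPL9: gugcucUcucucuucuguca
SPL3: UugcuUacucucuucuguca
AP2: cugcagcaucaucaGgauucu
TOE2: augcagcaucaucaGgauucu

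All 11 listed SPL genes scored 1 to 3, and 8 of them scored 1 with the same site as SPL9. These 8 were also the only coding genes that scored as low as 1 with miR156 and miR157. SPL3, SPL4 and SPL5 scored 1.5, 2 and 3, and their sites lay in the 3′ UTR, whereas those of the other 8 lay in coding sequence. Counting the listed genes, 10, 15 and 47 coding genes scored as low as SPL3, SPL4 and SPL5. At SPL9 the products miR156a-5p, miR156h, miR157a-5p and miR157d all scored 1. At SPL3 they differed: miR156a-5p scored 1.5, miR156h and miR157d 3.5 and miR157a-5p 4. For miR172 all 6 listed genes scored 0.5 to 2 within coding sequence. AP2 and TOE2 were lowest at 0.5, and no other coding gene was as low. AP2 scored 0.5 with miR172c and 1.5 with miR172a, a difference at the end base that separates those products.

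The vascular and lignin families followed, with the capitals as before. PHB (chr2:14642530-14642666, minus strand) and HB15 (chr1:19412976-19413085, minus strand) encode HD-ZIP III transcription factors. LAC4 (chr2:15936120-15936140, plus strand) and LAC17 (chr5:24169068-24169088, plus strand) encode laccases of lignin polymerisation in stems. LAC7 (chr3:2829996-2830397, minus strand) encodes another laccase, and HAM1 (chr2:18619128-18619148, minus strand) a GRAS factor of meristems. Sites are aligned with miR165a-3p for PHB, miR166a-3p for HB15, miR397a for LAC4 and LAC17, miR857 for LAC7 and miR171a-3p for HAM1. The coordinates of PHB, HB15 and LAC7 include an intron.
PHB: UUgggaugaagccugguccgG
HB15: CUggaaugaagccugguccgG
LAC4: AGucaacgcugcacuUaauga
LAC17: AaucaaUgcugcacuUaauga
LAC7: aCacaccuucaacGuacaaaa
HAM1: gauauuggcgcggcucaauca

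All 5 HD-ZIP III genes (PHB, PHV, REV, HB8 and HB15) scored 2.5, and in all 5 the site ran across an exon junction, so that it is whole in the spliced RNA and split by an intron in the gene. PHB scored 2.5 with miR165a-3p and 3 with miR166a-3p. For HB15 the order was the other way round, 2.5 with miR166a-3p and 3.5 with miR165a-3p. C17U is the only base at which these products differ. Among all coding genes 7 scored as low as 2.5 with any annotated strand of the 2 families, the other 2 being DCL1 and AT5G06350 through 5p strands of another seed.

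For miR397 all 3 listed laccases scored low, LAC2 at 1.5 and LAC4 and LAC17 at 2. The unlisted CKB3 also scored 2, with miR397b. LAC4 and LAC17 scored 2 with miR397a and 3 with miR397b, whose products differ by G13U. LAC7 scored 1.5 with miR857, the lowest of all coding genes, and its site also crossed an exon junction. For miR408 the plantacyanin gene (ARPN in RefSeq), which encodes a small blue copper protein, scored 2, while the laccase genes LAC12 and LAC13 scored 3.5 and LAC3 scored 4. At a score of 4, 64 coding genes (0.235%) matched miR408, so the LAC3 score does not stand out from that background. For miR164, NAC080 and NAC100 scored lowest at 1.5, CUC1, CUC2 and NAC1 scored 2 and ORE1 scored 2.5, all within coding sequence. Among all coding genes 6 scored as low as 2 and 8 as low as 2.5 with miR164.

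In the remaining families the listed target with the lowest score was as follows. The GRAS genes HAM1, HAM2 and HAM3 scored 0 with miR171 and were the only coding genes to do so. Among auxin genes, ARF17 scored 0.5 with miR160, ARF6 2.5 with miR167, and the receptor genes AFB2 and AFB3 scored 2 with miR393. Transcription factor genes included AGL16 at 0.5 with miR824, MYB101 at 1.5 with miR159, TCP10 at 2.5 with miR319, and MYB12 and MYB111 at 3 with miR858. The unlisted ALDH22A1 also scored 2.5 with miR319, and 12 coding genes scored as low as MYB12 and MYB111. All 7 NF-YA genes scored 2.5 or 3 with miR169, each in the 3′ UTR. Among all coding genes 6 scored as low as 2.5 and 14 as low as 3 with this family. The nutrient targets were PHO2 at 1 with miR399, NLA at 1 with miR827 and APS4 at 1.5 with miR395, and the F-box gene LCR scored 1 with miR394. AT2G28780, which was not listed, also scored 1.5 with miR395.

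The small RNA pathway is itself among the targets. AGO2 scored 1 with miR403 and AGO1 2.5 with miR168, each the lowest of all coding genes for its family. The non-coding TAS1A, TAS1C and TAS2 transcripts, from which secondary small RNAs are made, scored 1.5 with miR173, a level that no coding gene reached. TAS3 scored 3 with miR390, and 4 coding genes scored as low. DCL1 scored 4.5 with miR162, and 88 coding genes scored as low. It is the host of MIR838 as well. CSD1 scored 3 with miR398 and CSD2 6.5, and 7 coding genes scored as low as CSD1. None of the 7 GRF genes reached 4 with miR396: GRF9 scored 4.5 and the others 5.5 or 6. As low as GRF9 were 914 coding genes (3.36%). The search allowed no gap in either strand, so a site with a bulge scores high here.

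A coding gene outside the family's own host scored 2 or less in 52 of the 105 families, 16 of the 26 with several genes and 36 of the 79 with 1 gene. The median family had 64 coding genes at 4 or less. miR414 had 1692, the most, and miR836 had 0, with a lowest score of 4.5. Both were named after their values were seen. In 13 families a mature miRNA scored 5 or less with a gene that hosts a miRNA gene of the family. They included scores of 0 for miR408-5p in AT2G47020, for the miR398b and miR398c 5p strand in AT5G14550 and for miR780 in AT4G14810, where the miRNA gene itself lies on the opposite strand of the site.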

How the data were processed

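The series holds 21 libraries in 7 groups of 3. TopHat2 2.0.8 and Trimmomatic 0.0.3 are named, per the submitters' processing notes, along with the build TAIR10, without a role. The values deposited, start and end positions in bp counted from 1 in 9 columns, are the gene annotation. It has no columns of samples, so depth and expression are not analysed here. The members, gene lists and tests were chosen with earlier results of these data known.

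Overlap meant at least 1 shared base. Exons were joined over isoforms. Hairpins and mature miRNAs came from the RefSeq annotation of TAIR10.1, whose nuclear chromosomes have the lengths of TAIR10, and transcripts were spliced from the deposited annotation on that sequence. Of 27206 first isoforms, 27170 had an intact reading frame, and 35656 transcripts were searched. Symbols were taken from RefSeq for all 177 genes, and those of listed targets from the list. Hairpins were folded with ViennaRNA 2.7.2 and aligned globally with Biopython 1.88, under Python 3.11.15, numpy 2.4.6 and pandas 2.3.3. On simulated data 500 of 500 positions, 40 of 40 clusters and 200 of 200 planted sites were recovered. Of 800 other simulated transcripts, 1 scored 4 or less. The simulation checks the code in a simpler setting than the annotation, with planted sites free of G:U pairs and exon junctions. The text names every member in a cluster, intron or exon, the 3 longest and 3 shortest genes, the families of phase change, vascular tissue and lignin, and the lowest-scoring listed target of each family.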

Additional observations from a re-analysis of the deposited data

How the results depend on the processing

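Of the values recomputed under another choice, 26 stayed within 1.5 times the reported count, within the interval of a median or within the exact binomial interval of a chromosome's share, and 3 moved. Relative to the mean density, chromosome 2 stood at 0.991 per base and at 1.05 per coding gene, on different sides of the mean. With neighbours under 1 kb, 20 genes were in clusters in place of 39. Counting coding sequence alone, 5 miRNA genes overlapped exons in place of 13. Grouped by the number in the name there were 105 families in place of 174 seed groups. These counts differ in unit: names group the 177 genes, whereas seeds group all 258 mature miRNAs, both strands of a hairpin included. Clustered genes numbered 35 under 5 kb, 56 under 50 kb and 32 on the same strand alone. Listed targets at the score limit numbered 75 at 3, 85 at 5, 80 with G:U pairs as mismatches, and 83 with the mature miRNAs of the locus notes alone, a choice added after the data were seen. No paired analysis was possible because the annotation has no sample values and the result comes from no test. The annotation limits what can be said: TAIR10.1 has 326 miRNA genes, of which 148 have no TAIR10 locus, and a gene's ends are those of a hairpin in most cases, not of a transcript.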

Other observations

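The miR162 family shows a change of class between annotations. MIR162a (AT5G08185) is a miRNA gene in TAIR10.1 but a protein-coding gene of 1338 bp with 4 isoforms in TAIR10 (chr5:2634101-2635438, minus strand). Its hairpin (chr5:2634905-2635044) shares 71 bases with the annotated coding sequence. It is the only one of the 326 miRNA genes of TAIR10.1 with a protein-coding class in TAIR10, so the 177 genes include MIR162b alone for this family.

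Loci of other classes overlapped 6 miRNA genes. MIR836 was opposite a pseudogene, MIR826a opposite an other RNA gene and MIR401 opposite a transposable element gene, while MIR850, MIR863 and MIR156f were on the strand of an other RNA gene. In the predicted fold, MIR406 and MIR426 stood at -16.2 kcal/mol per 100 nucleotides and MIR417 at -21.5, beside the median of -39.9. For miR858, the genes CSTF77, MYB83, MYB93 and TT2, which were not listed, scored 2.5, lower than the listed MYB12 and MYB111. MYB83 is a regulator of secondary wall formation. These genes were named after their values were seen.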
